A study of Homo sapiens with 9 samples.

Results

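The subject is 8 genes, BUB1, TAF1, TPR, NPEPPS, ROCK2, SMARCA4, MCM3AP and NONO, of the 58214 genes with a measured transcript. They were chosen by measured values of these same libraries: in each of them at least 1 transcript was listed near 0 in some libraries and at 100 counts or more in others, while the gene as a whole was thought to move little. A switching transcript is defined here as one with under 1 expected count in at least 1 of the 9 libraries and at least 100 in at least 1 other. Just inside the limit lay SMARCA4-227, whose highest library had 125.5 counts, and just outside it SMARCA4-231, listed at 0 to 80.6, and TPR-207, at 3.32 to 164.4. The 8 genes have 149 measured transcripts, of which 58 reached 100 counts in a library and 23 met this definition. The values that define a switch are therefore a description, and none of them is tested.

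Poly(A) RNA was sequenced from K562 cells, a human erythroleukaemia line, transfected with siRNA. The 3 groups received a non-targeting siRNA pool (SCR), a pool against DHX34 or siRNA against UPF1, each with 3 libraries, which the study names as 3 of 4 biological replicates, and all cells were collected on day 4 after the first of 2 transfections with the same siRNA. All 3 groups carry the same line and the same transfection, and SCR is the only control. The study asked what each knockdown does to transcript levels and to splicing. Depletion was partial: DHX34 was at 69.4 to 72.1 CPM (counts scaled to a library total of 1000000) in SCR and at 30.3 to 35.2 in its own knockdown, and UPF1 at 241.4 to 259 and 107 to 109.6.

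UPF1 is the central helicase of nonsense-mediated decay (NMD). That pathway removes mRNAs on which translation ends too early, and DHX34 is a second helicase that takes part in it. One gene can give many transcripts through alternative starts, exons, introns and ends, and short reads seldom cover a whole molecule. A program such as salmon, which the authors used, therefore shares each read among all annotated transcripts that contain it, and writes an expected count and a TPM (a level per unit of length, scaled to the same total in each library) for each. Where no read can come from 1 transcript alone, its level rests on that sharing.

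Libraries held 73478797 to 103625443 expected counts, and no pair of replicates was alike enough to be 1 library counted again. DHX34 replicate 3 stood apart from its group: a chi-square per gene between 2 libraries was 27.3 and 24.6 for its pairs with the other DHX34 replicates and 6.21 to 11.1 for the other replicate pairs. Without it the genes called for the DHX34 knockdown against SCR numbered 1785 instead of 1768, with BUB1 and TAF1 among them in both cases, and those called between the knockdowns 3865 instead of 3026. The line's own markers were high in all 9 libraries, with GATA1 at 220.1 to 275.7 CPM and TFRC at 750.7 to 1115. The lymphocyte markers CD3E and MS4A1 were at 0 to 0.261 CPM and the keratinocyte gene KRT5 at 0, while COL1A2, a fibroblast collagen, was at 4.33 to 8.5 and EPCAM, an epithelial adhesion gene, at 85.5 to 97.6. Bulk RNA cannot tell a lower level in every cell from a smaller number of cells with the RNA.

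What tells some of the switching transcripts from their neighbours can be seen in the sequences themselves. They are shown for transcripts that a distinct end, start or exon sets apart, from GENCODE release 44 on GRCh38. The 2 BUB1 transcripts share 40 bases up to the end of an exon at chr2:110642119-110642158 on the minus strand. BUB1-207 then runs 5 bases into the intron, to position 110642114, and ends. BUB1-201, the main coding transcript, is spliced to the next exon, whose first 40 bases lie at chr2:110641764-110641803. Capitals mark what follows the shared exon end.
BUB1-207: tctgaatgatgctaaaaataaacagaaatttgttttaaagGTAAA
BUB1-201: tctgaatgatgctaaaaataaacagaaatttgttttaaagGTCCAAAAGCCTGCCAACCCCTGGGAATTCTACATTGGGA
The first 2 bases after the shared end are the same letters in both, and BUB1-207 had 3 words of 31 bases that no other BUB1 transcript of the tables holds. Words of 31 bases (31-mers) are the usual unit in which salmon looks up reads, and those called a transcript's own were counted against the GENCODE 44 sequence of the other transcripts of its gene.

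The TPR transcripts share an exon end at chr1:186355410-186355449 on the minus strand. TPR-209 closes with a 10-base exon at chr1:186353871-186353880, and TPR-201 goes on into an exon whose first 40 bases are at chr1:186353811-186353850. Capitals again mark what follows.
TPR-209: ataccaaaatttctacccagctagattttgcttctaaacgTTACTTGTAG
TPR-201: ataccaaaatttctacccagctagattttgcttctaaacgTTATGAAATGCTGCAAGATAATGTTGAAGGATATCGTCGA
Both continue with the same 3 letters, the 10-base exon also lies inside longer exons of TPR-204 and TPR-205, and TPR-209 had 0 31-mers of its own. Of the 2478 bases of TPR-209, 82 are not in TPR-201, and only the last 10 of them are printed.

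MCM3AP-204 differs at its start. It begins inside an intron of MCM3AP-201 and then enters an exon that both share, at chr21:46259052-46259091 on the minus strand. Capitals mark the last 40 of the bases before that exon, which in MCM3AP-204 are intron (up to position 46259131) and in MCM3AP-201 the exon before, at chr21:46260793-46260832.
MCM3AP-204: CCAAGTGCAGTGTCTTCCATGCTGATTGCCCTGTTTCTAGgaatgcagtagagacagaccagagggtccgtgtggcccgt
MCM3AP-201: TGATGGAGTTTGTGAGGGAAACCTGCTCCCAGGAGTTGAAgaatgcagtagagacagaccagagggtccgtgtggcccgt
MCM3AP-204 had 169 bases and 167 31-mers of its own, far more than the BUB1 and TPR transcripts.

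SMARCA4 transcripts differ by small coding exons that many of them share. An exon of 99 bases at chr19:11033767-11033865 on the plus strand and an exon of 96 bases at chr19:11039458-11039553 are printed in capitals, each with 10 bases of its neighbours as joined in SMARCA4-222 and SMARCA4-220.
99-base exon: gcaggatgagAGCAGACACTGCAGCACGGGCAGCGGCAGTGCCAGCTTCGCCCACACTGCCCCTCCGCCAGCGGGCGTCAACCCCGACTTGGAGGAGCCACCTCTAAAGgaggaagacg
96-base exon: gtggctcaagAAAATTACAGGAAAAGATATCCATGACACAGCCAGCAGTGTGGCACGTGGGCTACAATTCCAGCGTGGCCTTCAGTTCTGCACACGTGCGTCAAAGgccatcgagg
Downstream of the 96-base exon the next exon starts either at position 11041298 or 9 bases later, at 11041307. The 9 bases, in capitals, are in SMARCA4-225 and not in SMARCA4-220.
SMARCA4-225: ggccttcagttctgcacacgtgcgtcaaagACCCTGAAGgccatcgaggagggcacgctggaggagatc
SMARCA4-220: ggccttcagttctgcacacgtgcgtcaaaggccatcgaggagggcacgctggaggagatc
The early acceptor occurs in 13 SMARCA4 transcripts and the 96-base exon in 6 of the 38 that span it, but their joint use in SMARCA4-225 gives it 27 31-mers of its own.

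Of the 23 switching transcripts 17 have the same length in the deposited tables and in GENCODE 44, so their sequences could be compared. Of the 17, 10 had no 31-mer of their own, 4 had between 3 and 27, and the other 3 were MCM3AP-204, SMARCA4-212 with 258 and ROCK2-203 with 467. The 6 others (TAF1-201, NPEPPS-215, NPEPPS-216, SMARCA4-201, NONO-206 and NONO-208) changed length between the annotations and are not described by sequence. The main transcripts BUB1-201, TPR-201, MCM3AP-201, NPEPPS-201, NONO-201 and ROCK2-202 also changed length, so a few 31-mers may be counted otherwise in the authors' annotation. Over all genes 23.1% of the transcripts of unchanged length that reached 100 counts in a library had no 31-mer of their own, against 38.9% of those that went from under 1 count to 100 or more inside a group and 50% of those that, in a gene of steady sum, were absent from every library of 1 group and at 100 counts or more throughout another. Those of unchanged length were 70.5%, 86.6% and 79.7% of the transcripts in these 3 sets, and the members' 17 of 23 also fall short of 80%, so the comparison of the members with all genes is void and the shares are a description. Whether the sharing of reads made the switches was not tested.

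**Figure D1:**
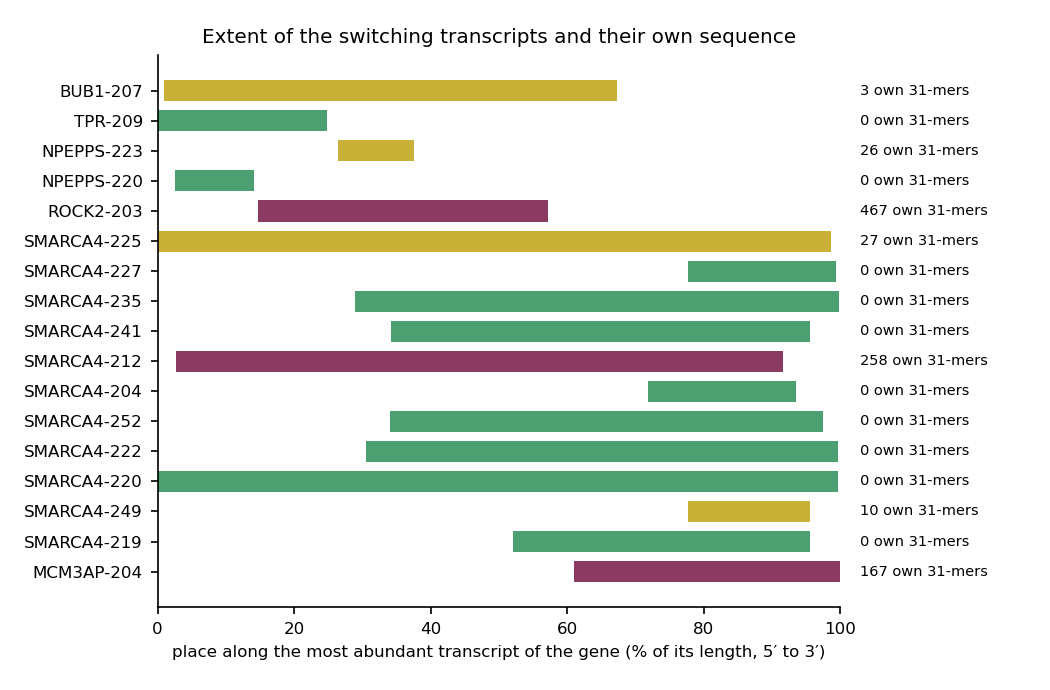
Extent of the 17 switching transcripts of unchanged length along the most abundant transcript of their gene (x axis, % of its length from the 5′ to the 3′ end), with the number of 31-mers found in no other transcript of the gene at the right. Green bars have 0 own 31-mers, yellow 3 to 27 and purple 167 to 467, and TPR-209 covers the 5′ part of its gene's main transcript while MCM3AP-204 and SMARCA4-252 cover the 3′ part.

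The 5 transcripts below were listed at 0 in all 3 SCR libraries and at 100 counts or more in all 3 libraries of the DHX34 knockdown, and each of them belongs to a different gene. Such a transcript, under 1 count throughout one group and at least 100 throughout the other in a gene whose sum moved by at most 0.5 on the log2 scale, is called all-or-none. The base was the transcripts of such steady genes, with several transcripts each, that reached 100 counts in a library of either group. Of these 33094 transcripts 67 were all-or-none between the DHX34 knockdown and SCR (0.202%). Without DHX34 replicate 3, when 1 library fewer has to meet the rule, the number was 104. The members were picked for this, so nothing is read from their number.

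BUB1 (chromosome 2, 110637528 to 110678063) encodes a kinase of the spindle assembly checkpoint, which holds mitosis until the chromosomes are attached. BUB1-207, annotated as a retained intron, was listed at 0, 0 and 0 counts in SCR, at 794, 1045 and 953 under DHX34 and at 0, 932 and 959 under UPF1 knockdown. UPF1 replicate 1 therefore sided with SCR and the other two with the DHX34 knockdown. In those 3 UPF1 libraries the coding transcript BUB1-201 was at 128.6, 110 and 121.3 CPM and the sum of the gene at 140.7, 134.7 and 141.5, so the library without BUB1-207 had the most BUB1-201 and an ordinary sum.

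On library totals the gene sum of BUB1 was 139 ± 1.51 CPM in SCR and 167 ± 5.06 in the DHX34 knockdown (SD, n = 3), a difference of 28.2 CPM, of which BUB1-207 made up 11.2 and BUB1-201 14.5. The largest loss of any BUB1 transcript was 0.162 CPM. With library sizes scaled by TMM (a factor that centres the fold changes of most genes), an alternative chosen after seeing the data, the gene difference was 19.7 CPM and that of BUB1-201 6.84, while that of BUB1-207 stayed at 11.1.

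In TAF1, TPR and NPEPPS the largest loss of any transcript in the DHX34 knockdown was 0.236, 0.152 and 0.579 CPM on library totals. With TMM it was 0.249, 0.181 and 1.59 CPM, the last in the main transcript NPEPPS-201, which was 5.69 CPM higher in the DHX34 knockdown on library totals. So the scaling decides the direction of NPEPPS-201 but not that of NPEPPS-215.

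TAF1 (chromosome X, 71366222 to 71532374) encodes the largest subunit of TFIID, the complex that places RNA polymerase II at promoters. TAF1-201, a coding transcript, was listed at 0 in each SCR library, at 945, 831 and 856 counts under DHX34 and at 511, 704 and 1174 under UPF1 knockdown. It took 15.3%, 18.8% and 16.2% of the gene's TPM under DHX34 and 10.3%, 12.7% and 18.5% under UPF1 knockdown. In SCR replicates 1 to 3 the TPM share of the main transcript TAF1-203 was 38.8%, 48% and 26.7%, and that of TAF1-204 29.5%, 27% and 38.9%. So the balance of these 2 transcripts also varied among SCR replicates, where TAF1-201 was listed at 0.

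TPR (chromosome 1, 186311652 to 186375693) encodes the coiled-coil protein that forms the basket on the nuclear side of the nuclear pore. TPR-209, which covers bases 1 to 2396 of the 9636 of TPR-201 in GENCODE 44, was listed at 0 in SCR, at 829, 524 and 697 counts under DHX34 and at 495, 689 and 784 under UPF1 knockdown. Its share of the gene's TPM lay between 10.7% and 13.2% in the 6 knockdown libraries. TPR-201 itself was at 144 ± 9.6 CPM in SCR, 180 ± 23.3 in the DHX34 and 162 ± 8.35 in the UPF1 knockdown (SD, n = 3), and DHX34 replicate 3, with 206.6 CPM against 166.1 and 166.2, sets the spread of its group.

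NPEPPS (chromosome 17, 47522942 to 47624665) encodes the puromycin-sensitive aminopeptidase, which trims peptides in the cytoplasm. NPEPPS-215, a coding transcript, was listed at 0 in SCR, at 713, 725 and 1250 counts under DHX34 and at 618, 170 and 267 under UPF1 knockdown. The 3 other switching transcripts of the gene were not all-or-none. NPEPPS-223 was at 0, 75 and 0 counts in SCR, 45, 57 and 0 under DHX34 and 0, 0 and 152 under UPF1 knockdown, and NPEPPS-216, annotated as an NMD substrate, at 151, 6 and 42, then 57, 20 and 0, then 164, 211 and 216. All 3 UPF1 knockdown libraries thus lay above the 6 others for NPEPPS-216 in counts not scaled for depth, with SCR replicate 1 not far below. SCR replicate 1 held 74639655 expected counts in all, against 75295290 to 103625443 in the UPF1 knockdown. NMD-annotated transcripts together took 4.56% of NPEPPS TPM in SCR replicate 1 and 3.8%, 4.41% and 4.34% in the UPF1 knockdown. NPEPPS-220 was at 0, 26.6 and 0 counts in SCR, 93.9, 162 and 87.6 under DHX34 and 81.7, 95.6 and 114 under UPF1 knockdown, so each knockdown library was above all 3 SCR libraries. A pseudogene copy, NPEPPSP1, was itself listed at 5.75 to 9.82 CPM, so NPEPPS counts are uncertain.

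SMARCA4 (chromosome 19, 10960932 to 11079426) encodes BRG1, the ATPase of the BAF chromatin remodelling complex, and had 12 of the 23 switching transcripts. SMARCA4-222 was listed at 0 in the 3 SCR and the 3 UPF1 knockdown libraries and at 1118, 249 and 557 counts in the DHX34 knockdown. SMARCA4-252 went the other way, with 1704, 711 and 2046 counts in SCR, 114, 0 and 0 in the DHX34 knockdown and 0 in each UPF1 library. Neither had a 31-mer of its own, and both cover the 3′ part of the main transcript SMARCA4-251, from bases 1693 and 1894 of its 5554.

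SMARCA4-222 was the one member transcript that was all-or-none between the 2 knockdowns. Of the 34195 transcripts of steady genes that reached 100 counts there, 32 were all-or-none (0.0936%), or 59 without DHX34 replicate 3. Of the 10 SMARCA4 transcripts that were not all-or-none, 9 crossed from under 1 count to 100 or more between replicates of one group. SMARCA4-235 was at 1104, 1063 and 334 counts in SCR, 0, 864 and 681 under DHX34 and 1212, 741 and 1090 under UPF1 knockdown. SMARCA4-220 was at 0, 73 and 0, then 0, 670 and 317, then 0, 0 and 686. SMARCA4-219 was seen in a single library, SCR replicate 3, with 315 counts. A transcript with sequence of its own was among them, as SMARCA4-212 was at 35, 224 and 0 counts in SCR, 257, 40 and 371 under DHX34 and 37, 278 and 35 under UPF1 knockdown.

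**Figure D2:**
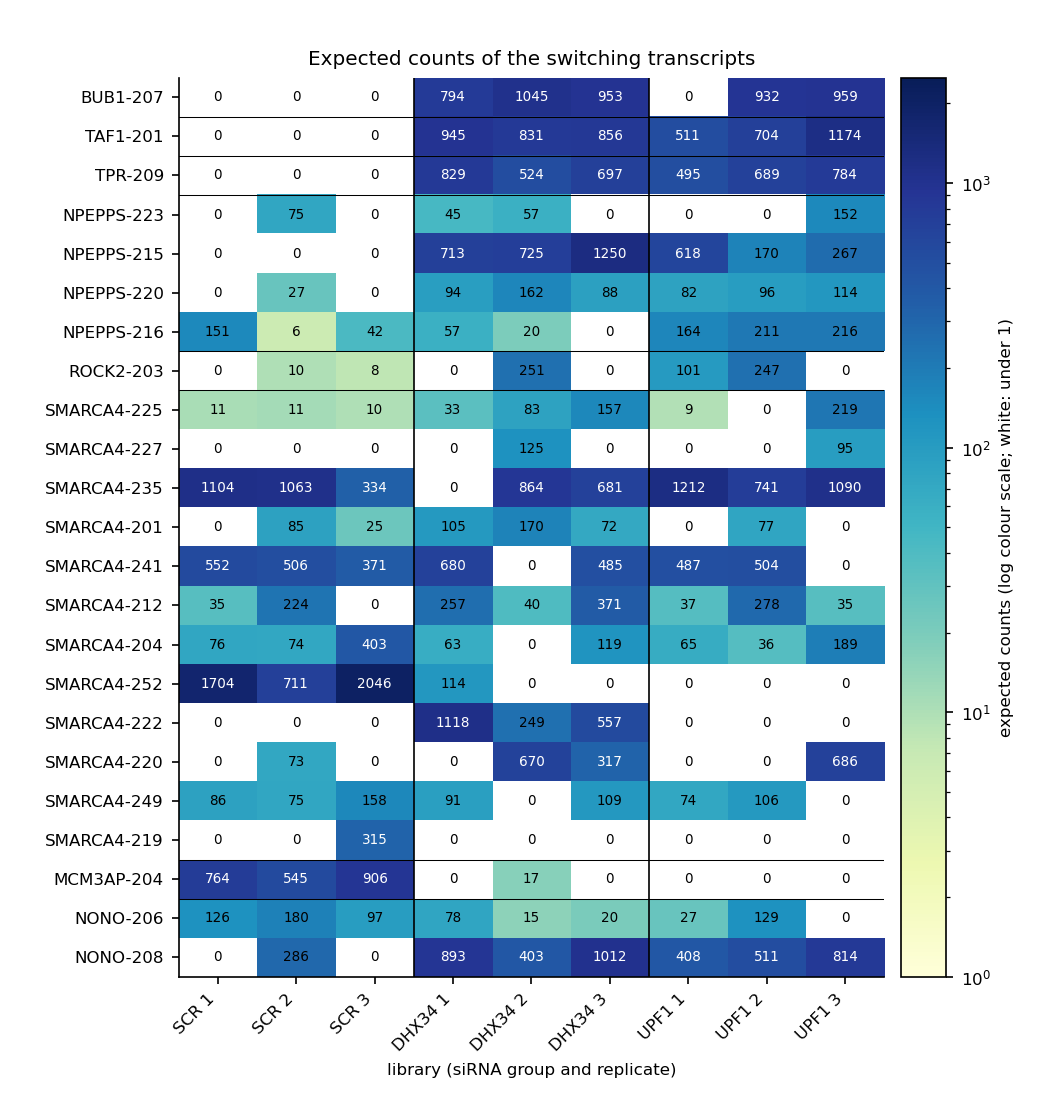
Expected counts of the 23 switching transcripts (rows, grouped by gene) in the 9 libraries (columns), with colour on a log scale and white cells under 1 count. The rows of TAF1-201, TPR-209 and NPEPPS-215 are empty in SCR and filled in both knockdowns, MCM3AP-204 and SMARCA4-252 show the reverse but for 17 and 114 counts in 1 DHX34 knockdown library each, and most other rows have gaps inside a group.

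Features that several SMARCA4 transcripts share were never listed at 0. The 99-base exon was in 4.15% to 7.82% of the TPM of transcripts that span it, the 96-base exon in 2.52% to 4.15%, and the early acceptor in 25.4% to 33.2%, over all 9 libraries. Coding transcripts together took 96.9% ± 0.681 of SMARCA4 TPM in SCR, 97% ± 0.118 in the DHX34 and 96.9% ± 0.548 in the UPF1 knockdown (SD, n = 3). Over the same libraries SMARCA4-252 alone ranged from 0% to 10.7% of SMARCA4 TPM. The features are sums over 16, 6 and 13 transcripts, and such a sum is at 0 only if each of its transcripts is. Sums and a single transcript are therefore not on one scale, and nothing is read from the contrast.

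Smaller shares of SMARCA4 moved with the UPF1 knockdown. The 96-base exon was in 3.67%, 3.57% and 4.15% of spanning TPM in SCR, 3.16%, 2.85% and 4.04% under DHX34 and 3.06%, 2.58% and 2.52% under UPF1 knockdown, where all 3 libraries lay below all of SCR. Transcripts annotated as NMD substrates took 0.59%, 0.83% and 0.32% of SMARCA4 TPM in SCR, 0.97%, 0.69% and 0.73% under DHX34 and 1.32%, 1.34% and 1.26% under UPF1 knockdown, whose libraries were above the 6 others. Those annotated as retained introns took 2.45% ± 0.596 in SCR, 2.12% ± 0.212 in the DHX34 and 1.47% ± 0.357 in the UPF1 knockdown (SD, n = 3). TAF1, NPEPPS and ROCK2 also have transcripts annotated as NMD substrates, and there the UPF1 knockdown and SCR libraries overlapped. Their mean shares of the gene's TPM were 5.94%, 2.3% and 0.49% in SCR and 5.72%, 4.18% and 1.65% in the UPF1 knockdown. These shares are given as a description.

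A sum over SMARCA4 transcripts that start late also followed the groups, mostly through SMARCA4-252. The 17 transcripts that start past base 1500 of SMARCA4-251 and run past base 5000 together had 50, 44.4 and 48.2 CPM in SCR, 27.6, 22.1 and 32.7 under DHX34 and 32.7, 24.3 and 21.3 under UPF1 knockdown. All 6 knockdown libraries lay below all 3 SCR libraries. The mean of the sum was 47.5 CPM in SCR, 27.5 in the DHX34 and 26.1 in the UPF1 knockdown. SMARCA4-252, itself a switching transcript, is one of the 17. Its own mean changed by -17.8 CPM in the DHX34 and -18.1 CPM in the UPF1 knockdown, most of the fall. The sum is therefore again a description, and nothing is read from it about late starts as a class.

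**Figure D3:**
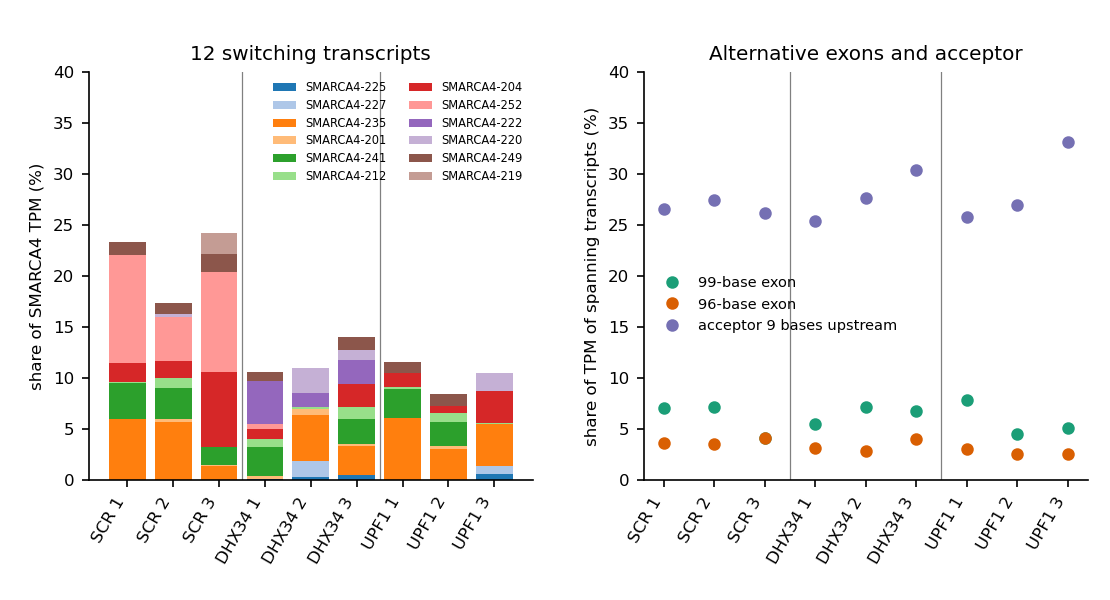
Left, share of SMARCA4 TPM (%) taken by each of the 12 switching transcripts in each library, stacked. Right, share of the TPM of spanning transcripts (%) that hold the 99-base exon, the 96-base exon or the early acceptor, where the first 2 coincide in SCR replicate 3. The stacks change in make-up from library to library, while the exon shares stay within 4.15% to 7.82% and 2.52% to 4.15%.

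MCM3AP (chromosome 21, 46235133 to 46286297) encodes GANP, the scaffold of the TREX-2 complex that passes mRNA to the nuclear pore. MCM3AP-204, annotated without a coding frame, was listed at 764, 545 and 906 counts in SCR, 0, 17 and 0 in the DHX34 knockdown and 0 in each UPF1 library. With SMARCA4-252 it was 1 of 2 member transcripts that were present only in SCR under the all-or-none rule, both against the UPF1 knockdown. Between the UPF1 knockdown and SCR 55 of 33160 transcripts were all-or-none (0.166%), 5 of them in members. The main transcript MCM3AP-201 was at 135 ± 3.89 CPM in SCR, 151 ± 2.29 in the DHX34 and 148 ± 2.12 in the UPF1 knockdown (SD, n = 3), differences of 16.2 and 13.4 CPM on library totals against the 9.12 CPM of MCM3AP-204 in SCR. With TMM these differences were 8.12 and 3.44 CPM. An antisense gene, MCM3AP-AS1, was listed at 9.4 to 12.6 CPM, and whether strand was used in counting is not given in the sources used here.

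ROCK2 and NONO had no all-or-none transcript. ROCK2 (chromosome 2, 11179759 to 11348330) encodes a kinase that drives actomyosin contraction, and ROCK2-203, which has a first exon of its own, was at 0, 10 and 8 counts in SCR, 0, 251 and 0 under DHX34 and 101, 247 and 0 under UPF1 knockdown. NONO (chromosome X, 71254814 to 71301522) encodes an RNA-binding protein of paraspeckles. NONO-208 was at 0, 286 and 0 counts in SCR, 893, 403 and 1012 under DHX34 and 408, 511 and 814 under UPF1 knockdown, and NONO-206 at 126, 180 and 97, then 78, 15 and 20, then 27, 129 and 0. For NONO-208 SCR replicate 2 is the library that breaks the pattern, since each knockdown library was above all 3 SCR libraries.

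Crossing within a group occurred over all genes as well. In SCR 1445 of the 30717 transcripts that reached 100 counts in that group, in genes with several transcripts, were under 1 in another SCR replicate (4.7%). The numbers were 1595 of 33227 in the DHX34 knockdown (4.8%) and 1621 of 35190 in the UPF1 knockdown (4.61%). This asks for 1 library on each side, where all-or-none asks for 3, so the 2 counts are not on one scale. Among the members 15 of the 23 switching transcripts crossed within a group, and 5 were all-or-none without doing so: TAF1-201, TPR-209, NPEPPS-215, SMARCA4-222 and MCM3AP-204. BUB1-207 and SMARCA4-252 did both.

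The gene sums were only partly steady. They were compared by edgeR quasi-likelihood fits over all genes, and a change was called where the p adjusted by Benjamini and Hochberg's method did not exceed 0.005. Log2 fold changes in the DHX34 knockdown were 0.35 (SE 0.052) for TAF1, 0.30 (SE 0.069) for TPR and 0.18 (SE 0.033) for BUB1, and those of the other 5 genes lay between -0.05 for NONO and 0.11 for SMARCA4. In the UPF1 knockdown TAF1 had 0.33 (SE 0.046) and TPR 0.14 (SE 0.045), and the others lay between -0.10 for BUB1 and 0.08 for NPEPPS. In the DHX34 knockdown 2 of the 8 genes, BUB1 and TAF1, were called, where 10.4% of all genes tested were. In the UPF1 knockdown 1 was, TAF1, beside 25.3% of all genes, and between the knockdowns 1, BUB1, beside 17.4%. The gene sum took part in the choice of members, so nothing is read from these calls, and several depended on the processing. That of BUB1 in the DHX34 knockdown was lost in 7 alternatives: length-scaled TPM, a replicate block and leaving out any 1 of the 5 libraries other than DHX34 replicate 3, with log2 fold changes of 0.17 to 0.20. That of TAF1 was lost without SCR replicate 1 (0.34) or SCR replicate 3 (0.32). TPR was called in the DHX34 knockdown by DESeq2 (0.30) and without a filter (0.31), in the UPF1 knockdown with length-scaled TPM (0.31), without a filter (0.14) and with a replicate block (0.14), and between the knockdowns without a filter (-0.16). BUB1 was called in the UPF1 knockdown by DESeq2 (-0.11).

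The scaling sets the sign of the smaller values. On library totals the median gene was 0.09 higher on the log2 scale in the DHX34 knockdown than in SCR and 0.10 higher in the UPF1 knockdown, against 0.02 and 0.02 with the TMM factors used in the fits. On library totals the UPF1 knockdown values of BUB1, MCM3AP, NONO and ROCK2 and the DHX34 knockdown value of NONO were above 0, and with TMM below it.

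**Figure D4:**
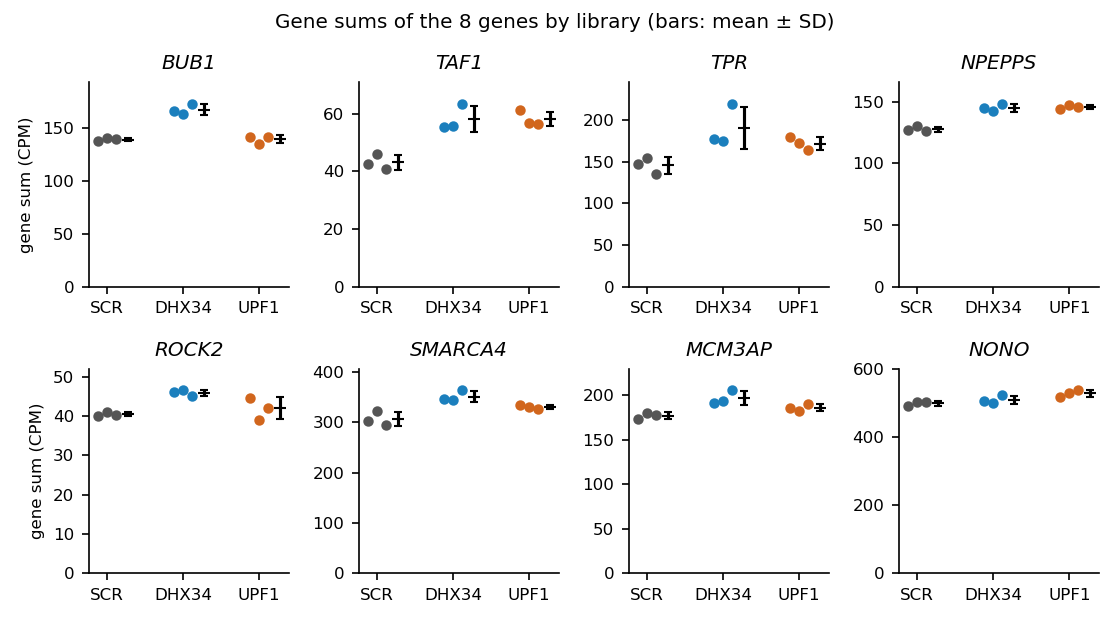
Gene sums of the 8 genes (y axis, CPM, from 0) for each library in the SCR, DHX34 and UPF1 groups, with mean ± SD (n = 3) beside the points. TAF1 stands higher in both knockdowns (55.3 to 63.5 CPM against 41 to 45.9), while the NONO points lie within 491 to 536 CPM.

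Read as TPM, 7 of the 8 genes, all but SMARCA4, had a larger ratio of the DHX34 knockdown to SCR than in CPM. Part of this was seen within single transcripts of any length. The main transcript of each of the 8 genes had a larger ratio to SCR in TPM than in CPM in both knockdowns. For NONO-201, shorter than TPR-201, the ratio of the DHX34 knockdown to SCR was 0.979 in CPM and 1.03 in TPM. For TPR-201 the ratio of the DHX34 knockdown to SCR was 1.25 in CPM and 1.32 in TPM, and for the whole of TPR 1.31 and 1.58. For BUB1-201 the ratio of the UPF1 knockdown to SCR was 0.948 in CPM and 1.02 in TPM, and for the whole of BUB1 1.00 and 1.10. The cause was not tested. TPR was at 21.7 ± 1.69 TPM in SCR, 34.4 ± 6.79 in the DHX34 and 31.3 ± 0.711 in the UPF1 knockdown (SD, n = 3), when its sum in CPM went from 145 ± 9.89 to 191 ± 25 and 172 ± 7.73. For BUB1 the UPF1 knockdown and SCR had almost the same CPM, 139 ± 3.7 and 139 ± 1.51, but 52.7 ± 1.09 and 47.8 ± 0.668 TPM.

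Partial transcripts of other genes moved with the groups as well, an observation made after the members had been seen. Among the non-members of unchanged length, 2954 transcripts of at least 500 bases shared at least 80% of their bases with the most abundant transcript of their gene, which had at least 2000 bases, and were at most 70% as long. The 2085 whose centre lay in the first 40% of that transcript had 2407 to 2679 CPM together in the SCR libraries, 3311 to 3418 in the DHX34 and 3302 to 3560 in the UPF1 knockdown libraries. The 416 whose centre lay in the last 40% had 758 to 878 CPM in SCR, 505 to 581 in the DHX34 and 634 to 731 in the UPF1 knockdown.

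Of the counts in these first and last parts, the first took 75.6% ± 2.33 in SCR, 86% ± 0.919 under DHX34 and 83.8% ± 1.65 under UPF1 knockdown (SD, n = 3). All 6 knockdown libraries lay above all 3 SCR libraries. Without DHX34 replicate 3 the DHX34 difference was 10.7 instead of 10.4 percentage points. The exact two-sided permutation p was 0.1 for each knockdown, the smallest that 3 libraries against 3 allow, so this design cannot reach 0.05. BUB1-207 and TPR-209, which cover the 5′ part of their gene's main transcript, were absent from SCR, and MCM3AP-204 and SMARCA4-252, which cover the 3′ part, were nearly absent from the knockdowns. SMARCA4-222 covers the 3′ part and was present only in the DHX34 knockdown. SMARCA4-235 and SMARCA4-241 also cover the 3′ part, and their counts overlapped between SCR and each knockdown. SMARCA4-235 had 1104, 1063 and 334 counts in SCR, 0, 864 and 681 under DHX34 and 1212, 741 and 1090 under UPF1 knockdown. SMARCA4-241 had 552, 506 and 371, then 680, 0 and 485, then 487, 504 and 0. The remaining switching transcripts are not sorted by place here. The part of the shift of partial transcripts in the switches was not tested. The median gap between a transcript's length and its effective length, which reflects fragment size, was 254 bases in each SCR library, 258 to 259 in the DHX34 and 251 to 256 in the UPF1 knockdown libraries.

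**Figure D5:**
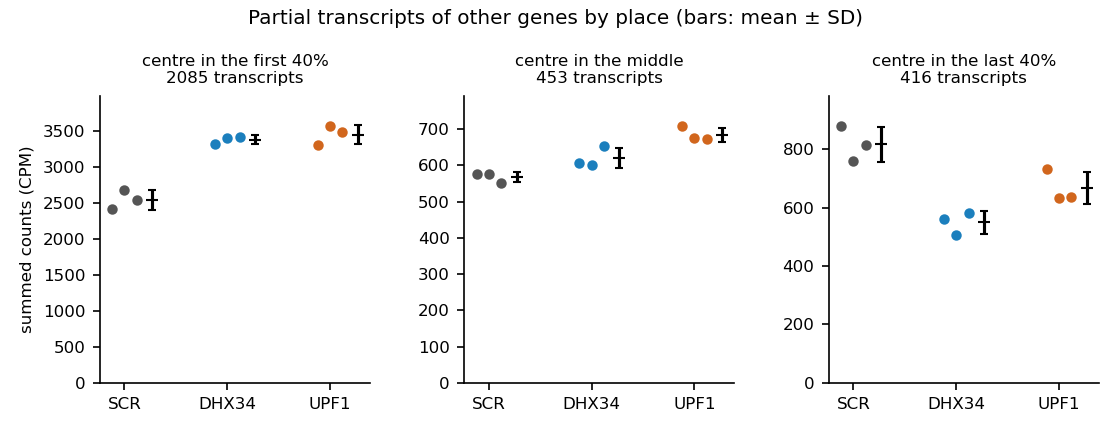
Summed CPM (y axes, from 0) of partial transcripts of non-member genes in each library of the 3 groups, by the place of their centre along the gene's most abundant transcript (2085, 453 and 416 transcripts), with mean ± SD (n = 3). The first-part sum lies higher in both knockdowns (3302 to 3560 CPM against 2407 to 2679) and the last-part sum lower.

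Effective lengths, by which salmon turns counts into TPM, scarcely moved for the largest switches, from 2175 to 2197 bases for BUB1-207 and from 3367 to 3387 for SMARCA4-252 over the 9 libraries. Of the 23 switching transcripts 1, NPEPPS-216, is annotated as an NMD substrate. It was at 164, 211 and 216 counts in the UPF1 knockdown, with SCR replicate 1 not far below, as given above.

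Genes outside the 8 with the same pattern were named by how many counts the all-or-none transcript had in its lowest library. Against SCR, DDX6-206 was listed at 0 in each SCR library and had at least 2185 counts in each DHX34 and 1576 in each UPF1 knockdown library. The gene DDX6, a helicase of mRNA decay, stood at 175 ± 7.27, 177 ± 1.1 and 178 ± 4.06 CPM in SCR and the 2 knockdowns (SD, n = 3). PRAME-207 had at least 1869 counts in the DHX34 knockdown and was at 0 in SCR, and KIF14-202, MGA-210 and 1 noncoding transcript of TUG1 had at least 1455, 1101 and 896 in SCR and were at 0 in the DHX34 knockdown. In the UPF1 knockdown RBM39-206 and HNRNPDL-202 had at least 2511 and 1387 counts against 0 in SCR, and KAT6A-202 was at 0 against at least 1846. RBM39-206 and HNRNPDL-202 are annotated as NMD substrates. Of the 5 among these 8 transcripts that kept their length, PRAME-207, RBM39-206 and HNRNPDL-202 had 0 31-mers of their own, KIF14-202 had 3 and the TUG1 transcript had 28.

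Partners of the 8 genes were counted as 8 lists with 62 genes, which have 63 gene identifiers because MATR3 has 2. In the DHX34 knockdown 10 of the 63 were called (12 without DHX34 replicate 3), 3 up and 7 down, and in the UPF1 knockdown 24, 8 up and 16 down, where 10.4% and 25.3% of all genes tested were. Both comparisons use the same SCR libraries. In TREX-2, the partners of MCM3AP, 3 of 5 fell in each knockdown. CETN3, a centrin, was at 33.6 ± 0.792 CPM in SCR, 27.7 ± 0.367 in the DHX34 and 26.1 ± 0.614 in the UPF1 knockdown (SD, n = 3). Its log2 fold changes were -0.36 and -0.47 (edgeR adjusted p 0.000283 and 4e-06), beside a list median of -0.23 and -0.21 and an all-gene median of 0.02 and 0.02. ENY2 and SEM1, small subunits of the complex, had log2 fold changes of -0.22 and -0.28 in the DHX34 and -0.26 and -0.20 in the UPF1 knockdown.

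Of 6 nuclear pore genes, not all of them of the basket, counted as partners of TPR, edgeR called 0 in either knockdown. Of 13 TFIID partners of TAF1, TAF12 fell in the DHX34 knockdown and TAF9, TAF10 and TAF12 fell and TAF2 rose in the UPF1 knockdown. Of 13 BAF subunits beside SMARCA4, the alternative ATPase SMARCA2 rose in both (log2 fold changes 0.44 and 0.37) and the core subunit SMARCB1 fell in both (-0.26 and -0.19), while SMARCC2 rose in the DHX34 and ACTL6A and SMARCD2 fell in the UPF1 knockdown.

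Of 6 spindle checkpoint partners of BUB1, MAD2L1 fell in the DHX34 knockdown (-0.23) and BUB3 and TTK fell in the UPF1 knockdown (-0.14 and -0.29). Of 6 aminopeptidases related to NPEPPS, ERAP1, which trims peptides in the endoplasmic reticulum, rose from 21.4 ± 0.718 CPM to 35.9 ± 1.79 in the DHX34 and 35.1 ± 1.04 in the UPF1 knockdown (SD, n = 3), and in the UPF1 knockdown AOPEP and LNPEP rose and LTA4H and RNPEP fell. Of the 6 identifiers of paraspeckle genes beside NONO, SFPQ, its binding partner, fell in both (-0.19 and -0.25), and NEAT1, the RNA that paraspeckles form on, and the identifier ENSG00000280987 of MATR3, which shares sequence with its other identifier, rose in the UPF1 knockdown (0.74 and 0.33).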

How the data were processed

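RNA-seq of 9 K562 libraries was analysed. The authors quantified reads with salmon 1.5.2 (GC bias correction) against Ensembl 93 transcripts on GRCh38. The deposited tables give, for each of 203027 transcripts, expected counts and TPM by the authors, with no further normalization, and a length and effective length. The authors' deposited tables of sleuth effects and SUPPA2 splicing differences, with their p-values, were not used.

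Transcripts were joined by identifier to GENCODE 44, which matched 97.9% of them and 98.1% of counts. Expected counts were summed by gene, rounded, and tested per pair of groups with edgeR 4.0.16 (R 4.3.3, TMM, filterByExpr with a minimum count of 10). Sequence was compared between a gene's transcripts only. The gene fits were checked on simulated counts. The all-or-none call was checked on measured transcripts whose SCR counts were removed while the gene sums were left unchanged. That check concerns the coding of the rule only. Tables were handled with pandas 2.3.3 and exact tests run with SciPy 1.17.1.

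The members and the gene lists were chosen with earlier results of these data known. Named were the 8 genes, their switching transcripts, called partners, and the 5 non-members per knockdown with the highest lowest count. The partner list of ROCK2, which is in the partner totals, and 1 such non-member are not reported here. An expected count of 0 is an estimate after reads are shared, so no counting interval is given. Alternatives were DESeq2 1.42.0, its size factors, no filter, an adjusted p of 0.05, length-scaled TPM, a replicate block, other limits of presence, absence and gene sum, and leaving out each library. Library totals without TMM, TMM-scaled transcript levels, the gene-level alternatives for UPF1 against DHX34 knockdown and the partial transcripts were added after seeing the data.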

Additional observations from a re-analysis of the deposited data

Results flagged for a closer look

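For 7 partner genes that were called in a knockdown against SCR, the direct fit of the UPF1 against the DHX34 knockdown was called as well (edgeR adjusted p 1.4e-05 to 0.00353). The log2 difference, UPF1 minus DHX34 knockdown, was -0.25 for SMARCC2, -0.31 for SMARCD2, -0.32 for RNPEP and -0.22 for TTK. It was 0.24 for MAD2L1, 0.25 for the identifier of MATR3 named above and 0.94 for NEAT1, whose DHX34 knockdown libraries varied widely (75.9 ± 27.6 CPM, SD, n = 3). Each kept its direction in all 11 alternative fits. MAD2L1, RNPEP and SMARCD2 were called in all 11, and SMARCC2 in 10, the exception being length-scaled TPM (adjusted p 0.00722). TTK was called in 6, MATR3 in 5 and NEAT1 in 4 of the 11, so the difference between the knockdowns is uncertain for these 3 genes. All 3 lost it with length-scaled TPM and without any 1 of DHX34 replicate 2, UPF1 replicate 1 and UPF1 replicate 2, MATR3 and NEAT1 also without DHX34 replicate 1, TTK and NEAT1 without UPF1 replicate 3, MATR3 with a replicate block and NEAT1 by DESeq2. The cause was not tested. In this comparison 8 partners were called, 22 at an adjusted p of 0.05, 12 without a filter, 4 without UPF1 replicate 1 or 2, 5 without DHX34 replicate 1 or 2 or UPF1 replicate 3 and 11 without DHX34 replicate 3. No search for single outlying libraries was run in groups of 3.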

How the results depend on the processing

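The number of all-or-none transcripts depended on the limits. In the order DHX34 against SCR, UPF1 against SCR and UPF1 against DHX34 knockdown it was 67, 55 and 32, became 121, 110 and 64 with presence from 50 counts, and 34, 28 and 13 with presence from 200. A gene sum within 0.25 gave 37 for DHX34 and 33 for UPF1 against SCR. Without 1 library, which loosens the rule, it ran from 99 to 123, from 80 to 126 and from 49 to 77. Absence at exactly 0 or under 5 counts kept each number within 1.5 times. Transcripts that crossed within SCR, the DHX34 and the UPF1 group numbered 3174, 3437 and 3409 with presence from 50 counts and 540, 636 and 631 from 200.

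Gene calls for DHX34 against SCR were 1768, and were 4403 at an adjusted p of 0.05, 3015 by DESeq2, 3396 without a filter, 732 with length-scaled TPM and from 781 to 1785 without 1 library, at most 1160 unless that library was DHX34 replicate 3. Partner calls there were 10, and 29, 22 and 22 in the first 3 of these settings, and from 5 to 12 without 1 library, with the 5 found without DHX34 replicate 1. For UPF1 against SCR gene calls were 6917 at 0.05, 2761 with length-scaled TPM (partners 14) and from 3187 to 3733 without 1 library. For UPF1 against DHX34 knockdown they were 5691, 1665 and from 1915 to 3865.

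Replicate numbers are shared between groups, and the labels do not say whether same-numbered libraries were made together. Their deviations correlated by only -0.08 to 0.08, so no pairing was seen, and the main fits use none. With 3 libraries per group this cannot exclude it. With the replicate block the calls for DHX34 against SCR were 1007 genes and 7 partners, those for UPF1 against SCR 4345 and 26, and those between knockdowns 2320.

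The shift of partial transcripts kept its direction in each setting tried, with differences of 9.21 to 11.6 percentage points for DHX34 and 6.97 to 9.3 for UPF1 against SCR. Shares in expected counts instead of TPM moved 9 of the differences in transcript share, each to a smaller size, since short transcripts weigh more in TPM.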
